A study of Mus musculus with 3 samples.

Results

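A small part of the DNase I hypersensitive sites of MEL cells lies inside the exons of protein-coding genes, away from their starts. These distal exon peaks were taken from the peak list of biological replicate 2 by position alone: the midpoint of the 150 bp peak lay inside an exon of a protein-coding transcript (GENCODE mouse release 21, GRCm38/mm10) and more than 1000 bp from any transcript start of a protein-coding gene. The rule found 2410 of 106591 peaks, 2.26% of the list (95% Wilson interval 2.17 to 2.35). Of these, 714 lay in inner exons (neither the first nor the last of a transcript), 1460 in last exons and 52 in exons that are inner or last depending on the transcript. A further 37 lay in first exons that reach beyond 1000 bp, and 147 in single-exon transcripts only. Although the set was labelled as coding exon peaks, only 993 midpoints lay in coding sequence. In last exons 1263 of 1460 midpoints lay in the 3' UTR, so the peaks are called distal exon peaks here.

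MEL is a murine erythroleukaemia line, kept in culture as red cell precursors that do not mature on their own. Every library came from MEL cells after 24 hours in zinc dichloride, at a labelled dose of 125 in a unit whose prefix cannot be read. Of the 3 libraries, 2 are technical replicates of biological replicate 1 and 1 is biological replicate 2. With no untreated cells, nothing below compares zinc with its absence. The second peak list covers the whole series. It is read here as biological replicate 1, an inference from the text records of the libraries, which name its source alignment for both libraries of replicate 1 and not for that of replicate 2. It is called the replicate 1 list below, and every statement on recurrence rests on that reading. The same rule found there 7887 of 304049 peaks (2.59%). The read depth behind either list is unknown, and each replicate has 1 list, so the intervals below hold counting error alone and treat neighbouring peaks as independent, which they are not.

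DNase I cuts DNA that is free of nucleosomes or bound by regulatory proteins, most of all at promoters, enhancers and insulators. Exons can hold such sites too: an enhancer may overlap a coding exon, where the same bases specify both amino acids and factor binding, and a 3' UTR may hold an enhancer of its own or of a neighbouring gene. In red cell precursors the best known factors at such sites are GATA1, TAL1, KLF1 and NF-E2, together with CTCF at insulators, while PU.1, the product of Spi1, is the myeloid factor whose activation by Friend virus underlies this leukaemia. Zinc acts on transcription mainly through MTF1, which binds metal response elements.

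The sequences below show what such peaks look like at the level of bases: inner-exon peaks without UTR sequence, the 2 with the highest scores for each of 5 motif families. All are mm10, plus strand, 5′ to 3′, with the motif match in capitals and every other base in lower case. For CTCF they are in Soga1 (chr2:157030916-157031065, exon 8 of 15) and in Aff4, a subunit of the super elongation complex (chr11:53411856-53412005, exon 20 of 21). For PU.1 they are in Asap3 (chr4:136240116-136240265, exon 18 of 25) and in the phosphatase gene Ptpn18 (chr1:34468236-34468385, exon 6 of 15). For GATA they are in Ahi1 (chr10:21055056-21055205, exon 20 of 24) and Washc2 (chr6:116229216-116229365, exon 16 of 31). For AP-1 or NF-E2 they are in the interleukin-1 receptor gene Il1r1 (chr1:40294836-40294985, exon 5 of 11) and in Rere (chr4:150508876-150509025, exon 9 of 23), where the NF-E2 match contains an AP-1 match. For RUNX they are in Rptor, a subunit of the mTORC1 complex (chr11:119671236-119671385, exon 3 of 34), and Dlg3 (chrX:100814196-100814345, exon 18 of 21).
Soga1: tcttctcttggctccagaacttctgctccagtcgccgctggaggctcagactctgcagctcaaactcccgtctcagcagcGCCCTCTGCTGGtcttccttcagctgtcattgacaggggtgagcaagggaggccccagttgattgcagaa
Aff4: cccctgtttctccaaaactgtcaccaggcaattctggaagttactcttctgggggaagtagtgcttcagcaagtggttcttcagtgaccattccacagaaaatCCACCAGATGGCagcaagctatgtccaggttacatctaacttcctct
Asap3: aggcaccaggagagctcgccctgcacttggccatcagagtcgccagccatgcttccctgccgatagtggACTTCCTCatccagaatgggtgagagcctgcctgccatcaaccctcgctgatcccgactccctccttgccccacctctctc
Ptpn18: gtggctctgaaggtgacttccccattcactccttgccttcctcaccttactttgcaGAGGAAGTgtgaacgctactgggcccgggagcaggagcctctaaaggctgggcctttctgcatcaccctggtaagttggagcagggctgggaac
Ahi1: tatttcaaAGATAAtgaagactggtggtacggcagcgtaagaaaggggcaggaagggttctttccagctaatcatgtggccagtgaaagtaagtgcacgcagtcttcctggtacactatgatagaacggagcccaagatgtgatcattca
Washc2: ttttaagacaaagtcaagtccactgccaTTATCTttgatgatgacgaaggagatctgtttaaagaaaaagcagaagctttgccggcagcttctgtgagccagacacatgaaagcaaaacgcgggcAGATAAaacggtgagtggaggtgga
Il1r1: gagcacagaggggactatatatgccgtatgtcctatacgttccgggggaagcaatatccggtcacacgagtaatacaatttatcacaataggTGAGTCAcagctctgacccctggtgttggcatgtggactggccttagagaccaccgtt
Rere: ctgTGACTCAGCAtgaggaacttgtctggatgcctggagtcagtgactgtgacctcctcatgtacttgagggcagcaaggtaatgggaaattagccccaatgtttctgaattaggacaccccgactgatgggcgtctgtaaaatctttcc
Rptor: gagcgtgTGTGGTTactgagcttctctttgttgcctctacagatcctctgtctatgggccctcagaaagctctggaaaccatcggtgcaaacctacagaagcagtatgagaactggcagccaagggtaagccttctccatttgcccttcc
Dlg3: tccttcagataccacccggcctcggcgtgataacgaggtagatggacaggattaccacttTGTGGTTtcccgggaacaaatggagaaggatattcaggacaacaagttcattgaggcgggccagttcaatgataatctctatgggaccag

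Of the 10 peaks shown, only that of Aff4 lay wholly inside its exon, with 150 exonic bases. The others reached across a splice site, with 69 exonic bases in Ptpn18 and 142 in Dlg3 at the ends of the range. The marked match lay in the flanking intron in Il1r1 and Rptor, with 0 of 7 bases in the exon. In Ptpn18 7 of 8 bases were exonic, and in the other peaks the whole match was. In Washc2, a subunit of the WASH complex on endosomes, the peak held 2 GATA matches on opposite strands. Scores in the replicate 2 list ran from 28 (Aff4) to 66 (Ahi1). A replicate 1 peak overlapped 8 of the 10, with scores from 118 (Washc2) to 149 (Rptor), and the peaks of Asap3 and Ahi1 had none.

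Per Mb of sequence, inner exons held about as many peaks as distal introns and last exons slightly more, and both held more than intergenic sequence. In the replicate 2 list there were 38.1 peaks per Mb in inner exons (95% Poisson interval 35.3 to 41.0) and 40.9 in last exons (38.8 to 43.0). Distal introns held 37.6 per Mb, distal intergenic sequence 23.8, and promoters, the stretches within 1000 bp of a start, 309. The replicate 1 list gave 135 in inner exons, 136 in last exons, 130 in introns and 81.1 in intergenic sequence. Both lists thus gave the same order for the exon and intergenic classes, and the intervals of inner and last exons overlapped. The bases counted include repeats and assembly gaps. Of 150 bp windows on a fixed grid, repeat-masked bases made up on average 6.98% in inner exons, 17.5% in last exons, 29.2% in introns and 42.4% in intergenic sequence. No density was adjusted for this.

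Near a start, exons held fewer peaks than introns at the same distance, and in the replicate 1 list this reached farther out. Between 1000 and 2000 bp from a start, the replicate 2 list held 58.2 peaks per Mb in inner exons (49.2 to 68.3) and 50.9 in last exons (43.9 to 58.8), against 94.3 in introns (91.7 to 96.9) and 106 in intergenic sequence (101 to 110). From 10000 to 50000 bp the values were 32.4 (28.1 to 37.2), 34.5 (31.3 to 38.0), 36.8 and 40.8. In that range the intervals of both exon classes reached the value of introns. Between 2000 and 5000 bp inner exons (40.4, 34.8 to 46.7) lay below introns (51.9), and last exons (49.9, 45.3 to 54.8) did not differ from them beyond counting error. Beyond 50000 bp the order changed: last exons held 26.6 per Mb (20.9 to 33.5), introns 17.4, inner exons 15.2 from 23 peaks, and intergenic sequence 12.9. In the replicate 1 list, too, the range from 1000 to 2000 bp gave 178 per Mb in inner and 157 in last exons against 247 in introns and 264 in intergenic sequence. Its exons lay below introns farther out as well: 147 and 154 against 187 between 2000 and 5000 bp, and 135 and 143 against 160 between 5000 and 10000 bp. From 10000 to 50000 bp last exons (122, 116 to 128) lay below introns (129), while inner exons (124, 116 to 133) did not differ from them beyond counting error. Exons lie nearer to starts than the intergenic bases do, so the comparison by distance and the comparison over all bases answer different questions.

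**Figure D1:**
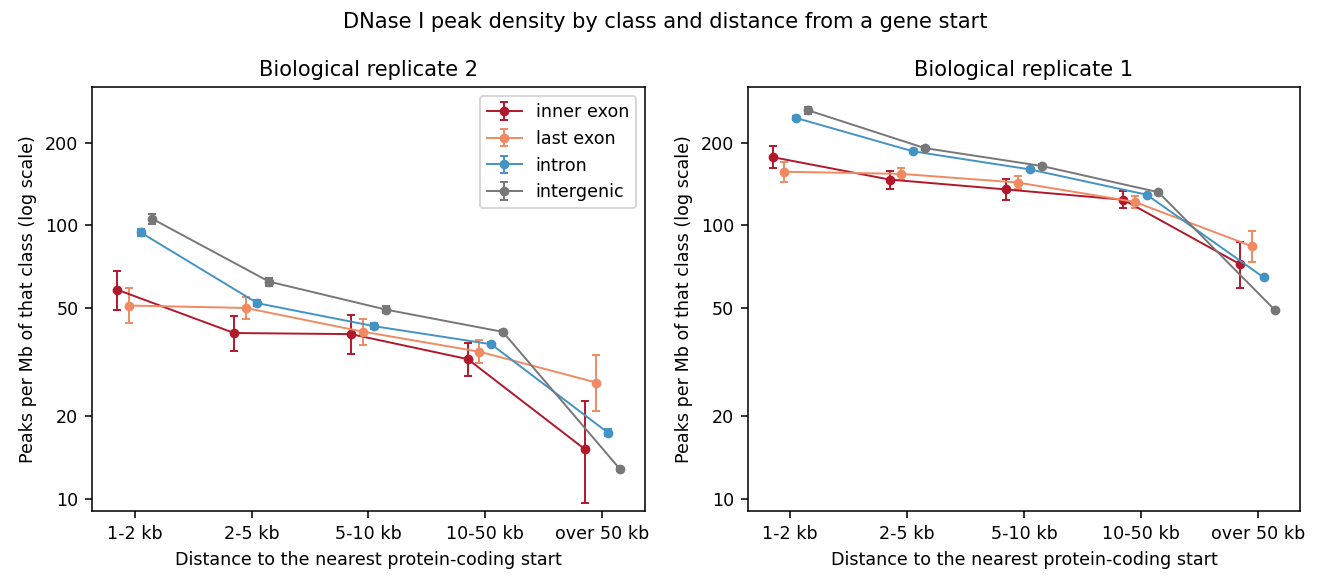
Peaks per Mb (log scale) against the distance of the midpoint from the nearest protein-coding start, for inner exons, last exons, introns and intergenic sequence in the 2 lists. Points are densities and bars are 95% Poisson intervals; between 1000 and 2000 bp both exon classes lie below introns and intergenic sequence in each list, and beyond 50000 bp last exons lie highest.

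Single-exon transcripts and long first exons were denser. The 147 peaks in single-exon transcripts gave 145 per Mb (122 to 170) and the 37 in first exons 124 (87.5 to 171). Most of these sit near their start: 97 of the 147 lay between 1000 and 2000 bp, where the single-exon density was 181 per Mb (147 to 221). Their median score was 33, against 27 in inner and 28 in last exons.

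At the 1000 bp limit itself, the 76 exon peaks from 900 to 1000 bp had a median score of 31, and 72.4% overlapped a replicate 1 peak. The 74 from 1000 to 1100 bp had a median of 32 and 64.9%.

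Within last exons, peaks were denser in 3' UTRs than in coding sequence in the replicate 2 list only. The densities were 42.2 per Mb in the 3' UTR (39.9 to 44.6) and 33.7 in coding sequence (29.1 to 38.8), while the replicate 1 list gave 136 and 134. Last exons of 4000 bp and more held 34.2 peaks per Mb (30.8 to 37.8), against 50.8 (39.7 to 64.1) in those under 500 bp. The replicate 1 list had the same order, 121 (114 to 127) against 162 (142 to 185). By distance from the stop codon, the 3' UTR held 47.5 peaks per Mb (41.5 to 54.1) within 250 bp and 40.9 (36.6 to 45.5) from 2000 bp on, intervals that overlap.

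Peaks over inner exons crossed the exon's borders about as often as windows laid over the same exons. Of 714 such peaks 535 (74.9%) reached beyond the exon into an intron, and so did 76.4% of all 150 bp windows with a midpoint in a distal inner exon. The median exon under a peak was 162 bp long, and so was the median under a window. Midpoints less than 25 bp from a splice site had 33.7 peaks per Mb (29.3 to 38.7) and those 50 to 99 bp away 40.5 (34.8 to 46.9), intervals that overlap. The replicate 1 list had fewer next to splice sites, 121 (112 to 130) against 143 (132 to 155).

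The authors gave each peak a score, a whole number no larger than 150 whose meaning is not stated, so it ranks peaks within a list only. Median scores were 27 (quartiles 20 to 35) in inner exons and 28 (20 to 36) in last exons, beside 27 in introns, 27 in intergenic sequence and 37 in promoters. Replicate 1 medians were 63 and 64 in the exon classes, 59 in introns and 57 in intergenic sequence.

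**Figure D2:**
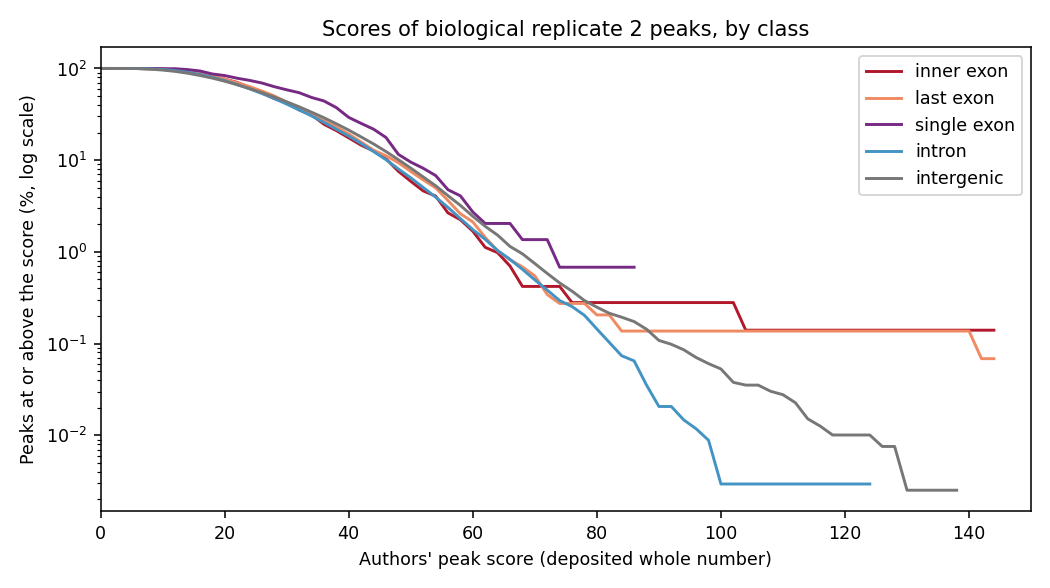
Share of replicate 2 peaks at or above each authors' score (log scale) for inner, last and single-exon peaks and for distal intron and intergenic peaks. The curves of inner and last exons follow that of introns until a score near 80; the flat tails from there on are the 4 Spi1 peaks of those classes.

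Distal exon peaks recurred in the other replicate about as often as other distal peaks. Of all 106279 replicate 2 peaks on the 19 autosomes, X and Y, 70.6% overlapped a replicate 1 peak by at least 1 bp. Of the distal exon peaks 1753 of 2410 did (72.7%), and of distal peaks outside exons 73.4%. The share was 74.6% in inner exons (71.3 to 77.7) and 73.4% in last exons (71.03 to 75.6). Inner exons exceeded introns by 1.34 points with a 95% Newcombe interval of -2.01 to 4.43, and last exons exceeded introns by 0.05 points (-2.32 to 2.30), so neither difference was larger than counting error. In the other direction, into the shorter replicate 2 list, 20.7% of the 7887 replicate 1 distal exon peaks overlapped a peak. That compares with 23.6% of all replicate 1 peaks on these chromosomes, 20.1% of its distal intron and 20.8% of its distal intergenic peaks. The share near 70%, of replicate 2 peaks in the replicate 1 list, is the background for every recurrence given below. Peaks in single-exon transcripts stood lower, at 57.1% (49.1 to 64.9), and promoters had 63.4%. Between 1000 and 2000 bp from a start, 54.6% of single-exon peaks (44.7 to 64.2) and 67.3% of intron peaks (66.0 to 68.6) recurred.

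In last exons recurrence rose with the score, from 63.1% (58.5 to 67.5) at scores up to 21 to 79.3% (73.9 to 83.8) at scores from 41 on. Inner exons had 72.5% (66.1 to 78.1) and 80.2% (71.8 to 86.5), intervals that overlap. Widened to hotspots, the broader stretches enriched in cuts, 97.2% of distal exon peaks lay in a replicate 1 hotspot, against 97.8% of all peaks.

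Motif content differed between inner and last exons, with CTCF more frequent in last exons and PU.1 in inner exons. A total of 14 motifs were searched on both strands inside the 150 bp. For each one, the share of peaks with a match was set beside that of all 150 bp windows on a fixed grid with midpoints in the same class. The motifs described at most length are CTCF, by its consensus, PU.1 as GAGGAAGT, GATA as AGATAA, RUNX as TGTGGTT, AP-1 as TGANTCA and the metal response element as TGCGCNC. The others were the composite E-box with GATA, which contains the GATA motif, NF-E2, which contains AP-1, ETS (CCGGAAGT), CACCC (CCACACCC), the GC box (GGGGCGGGG), CREB (TGACGTCA), NRF1 and YY1. Over 16 measures and 5 pairs of classes, 80 differences were computed in each list, and their intervals are not adjusted for that number.

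CTCF, the insulator protein, had its motif in 70 of 1460 last-exon peaks (4.79%, 3.81 to 6.01) but in 15 of 714 inner-exon peaks (2.10%, 1.28 to 3.44). The difference of -2.69 points had an interval of -4.17 to -1.04. The replicate 1 list also had fewer in inner exons, 2.56% against 3.88%, a difference of -1.32 points (-2.12 to -0.46). Distal intron peaks held it in 3.24% and intergenic peaks in 3.93%. Last exons were thus above introns, by 1.55 points (0.55 to 2.79), and inner exons were not distinguishable from introns at -1.14 points (-1.99 to 0.21). That second difference was -2.16 points (-2.72 to -0.42) among peaks at or above the median score and 0.28 points (-0.27 to 0.98) in the replicate 1 list. Last exons differed from intergenic peaks by 0.87 points (-0.13 to 2.10), within counting error, and inner exons by -1.82 points (-2.67 to -0.48). In the replicate 1 list these were 1.27 points (0.75 to 1.86) and -0.05 points (-0.61 to 0.64). Among all windows the motif is rare, 0.0911% in inner and 0.117% in last exons. Peaks held it 23.1 and 41.1 times as often, against 48.0 times in introns and 63.1 times in intergenic sequence. Of the 70 last-exon matches 28 were on the strand of the gene and 42 on the other, and of the 15 inner ones 9 and 6.

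PU.1 went the other way. GAGGAAGT was present in 60 inner-exon peaks (8.40%, 6.58 to 10.7) and 75 last-exon peaks (5.14%, 4.12 to 6.39), a difference of 3.27 points (1.06 to 5.75). Inner exons also exceeded introns (5.95%) by 2.45 points (0.61 to 4.73) and intergenic peaks (5.67%) by 2.73 points (0.90 to 5.01). In the replicate 1 list the shares were 11.8% in inner exons, 8.90% in last exons, 8.999% in introns and 9.25% in intergenic peaks, again with inner exons highest. Among replicate 2 peaks at or above the median score the excess of inner exons was within counting error, at 2.25 points over last exons (-1.21 to 6.32) and 2.19 over introns (-0.52 to 5.92). The windows differed in the same direction: of all windows 1.05% in inner exons, 0.865% in last exons and 0.819% in introns held the motif. Relative to their windows, inner-exon peaks held it 8.02 times as often, last-exon peaks 5.94 times and intron peaks 7.27 times; in the replicate 1 list these ratios were 11.2, 10.3 and 10.98. The match lay on the strand of the gene in 30 inner-exon peaks, on the other strand in 29 and on both in 1.

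Looking inside last exons, a split made after the values above were seen, the replicate 2 list held PU.1 in 16 of 191 peaks in coding sequence (8.38%) and in 59 of 1263 in the 3' UTR (4.67%). That difference of 3.71 points (0.29 to 8.61) was not present in the replicate 1 list, where the shares were 8.97% and 8.92% (0.05 points, -1.996 to 2.45). CTCF did not differ detectably between coding sequence and 3' UTR of last exons in either list, by -1.32 points (-3.63 to 2.53) and -0.995 points (-2.19 to 0.59).

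RUNX motifs were less frequent in both exon classes than in introns, and GATA and AP-1 motifs were less frequent in last exons. RUNX matches stood in 2.52% of inner-exon and 3.70% of last-exon peaks against 5.14% in introns, differences of -2.62 points (-3.57 to -1.17) and -1.44 points (-2.33 to -0.32). GATA matches stood in 9.10% and 8.29% against 10.9%, and only the last-exon difference of -2.65 points (-4.00 to -1.09) had an interval without 0 in the replicate 2 list. In the replicate 1 list GATA was lower than in introns in both classes, by -2.26 points (-3.28 to -1.12) in inner and -1.69 points (-2.47 to -0.84) in last exons. AP-1 was lower in last exons by -1.25 points (-2.23 to -0.04), and in the replicate 1 list in both classes, by -1.77 points (-2.55 to -0.85) in inner and -1.16 points (-1.79 to -0.47) in last exons. Exon windows as such hold fewer of these matches: for RUNX 2.56% in inner exons, 3.33% in last exons and 3.60% in introns, and for GATA 6.18%, 8.48% and 9.73%. For AP-1 the window shares were 3.64%, 4.06% and 4.62%. Against their own windows, GATA matches were 1.47 times as frequent in inner-exon peaks, 0.978 times in last-exon peaks and 1.12 times in intron peaks. For RUNX these ratios were 0.983, 1.11 and 1.43, and for AP-1 1.15, 1.10 and 1.24. In the replicate 1 list the RUNX ratios were 1.83, 1.75 and 1.85.

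Metal response elements, the sites of the zinc sensor MTF1, were matched in 16 inner-exon peaks (2.24%) and 40 last-exon peaks (2.74%), against 1.22% in introns. The differences from introns were 1.02 points (0.15 to 2.39) and 1.52 points (0.79 to 2.49). Both recurred in the replicate 1 list at 1.40 points (0.85 to 2.09) and 1.34 points (0.93 to 1.82). From intergenic peaks (1.66%) inner exons differed by 0.58 points (-0.29 to 1.95), within counting error, and last exons by 1.08 points (0.34 to 2.05). In the replicate 1 list these were 1.27 points (0.72 to 1.97) and 1.21 points (0.80 to 1.69). Written backwards, the motif also exceeded introns, by 0.52 points (0.06 to 1.499) and 0.36 points (0.04 to 0.93). Inner-exon peaks nevertheless held the motif no more often than inner-exon windows in general (2.39%, a ratio of 0.939), while last-exon peaks held it 1.83 times as often as theirs (1.49%). The ratio was 1.43 in intron peaks and, higher than in last exons, 2.67 in intergenic peaks. Replicate 1 ratios were 1.07 in inner exons, 1.67 in last exons, 1.36 in introns and 2.07 in intergenic peaks. Within last exons the motif stood in 15 of 191 peaks in coding sequence (7.85%, windows 3.52%) and in 25 of 1263 in the 3' UTR (1.98%, windows 1.11%). Median GC content was 49.3% in inner-exon and 48.7% in last-exon peaks, and 46% in intron peaks. The motif contains the pair CG, whose mean ratio of observed to expected counts was 0.352, 0.268 and 0.201 in these peaks. The part of either in these differences was not tested.

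ETS matches, rare in all classes, were more frequent in exon peaks than in the 0.174% of intron peaks. They stood in 5 inner-exon peaks (0.700%) and 13 last-exon peaks (0.890%), differences of 0.53 points (0.12 to 1.46) and 0.72 points (0.34 to 1.34). Replicate 1 differences were 0.33 points (0.10 to 0.70) and 0.27 points (0.11 to 0.51). Relative to their windows, matches were 1.84 times as frequent in inner-exon and 5.17 times in last-exon peaks, against 2.13 times in introns. The GC box stood in 11 last-exon peaks, above introns by 0.34 points (0.0036 to 0.94), and by 0.35 points (0.11 to 0.68) in the replicate 1 list. In inner exons the interval of its difference included 0 in both lists. CACCC matches were less frequent in inner exons than in introns in the replicate 1 list, by -0.76 points (-1.11 to -0.27), and not in the replicate 2 list, at 0.21 points (-0.48 to 1.41).

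**Figure D3:**
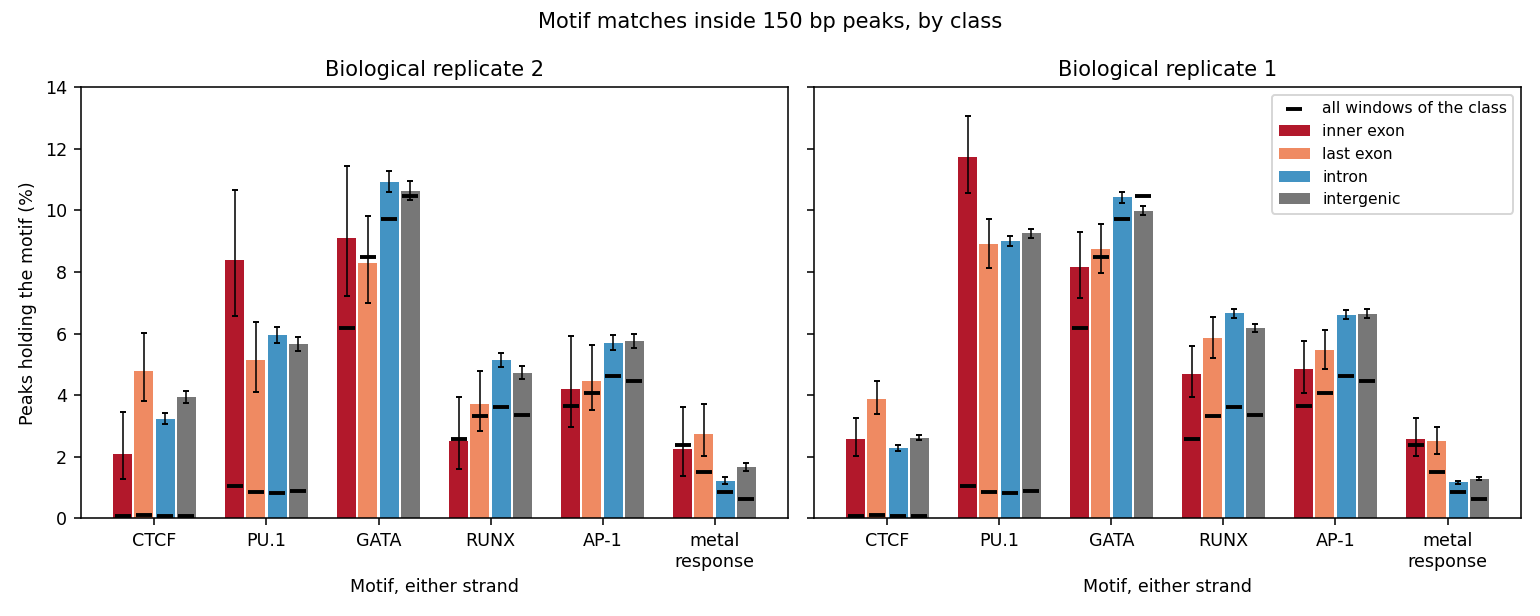
Share of peaks with a match to each of 6 motifs (bars, with 95% Wilson intervals) in inner exons, last exons, introns and intergenic sequence, in the 2 lists. Black marks give the share of all 150 bp windows of the class. The CTCF bar is highest in last exons, in replicate 2 within counting error of intergenic sequence. PU.1 is highest in inner exons, and the metal response bar of inner exons sits at its mark.

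Distal exon peaks with a CTCF match were found again in the replicate 1 list without exception. All 89 overlapped a replicate 1 peak, including 15 of 15 in inner exons (Wilson interval from 79.6%) and 70 of 70 in last exons (from 94.8%). Peaks without the motif recurred at 74.1% and 72.0%, lower by 25.9 points (5.27 to 29.3) and 28.0 points (22.3 to 30.4). The 4 other motifs compared in this way were PU.1, GATA, AP-1 and RUNX. Peaks with PU.1 recurred in 56 of 60 cases in inner exons (93.3%) and 69 of 75 in last exons (92.0%), above those without it by 20.4 points (10.6 to 25.8) and 19.7 points (10.97 to 24.6). For GATA, AP-1 and RUNX the intervals of the difference included 0 in both exon classes. These rested on 65, 30 and 18 inner-exon peaks and on 121, 65 and 54 last-exon peaks. Outside exons, 99.7% of 1100 intron peaks and 99.4% of 1558 intergenic peaks with CTCF recurred, as did 93.3% and 92.5% of those with PU.1. Among the more numerous intron peaks, RUNX, AP-1 and GATA also went with higher recurrence. Their differences were 8.86 points (6.91 to 10.7), 4.15 points (2.17 to 6.03) and 2.60 points (1.10 to 4.04). In intergenic peaks they were 9.02 points (7.17 to 10.7), 2.87 points (1.03 to 4.63) and 0.71 points (-0.71 to 2.09). In the replicate 2 list, median scores with and without CTCF were 23 and 27 in inner exons, and 28 and 27 in last exons. For PU.1 they were 28 and 27 in inner exons, and 30 and 27 in last exons. Whether the score had a part in recurrence by motif was not tested.

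**Figure D4:**
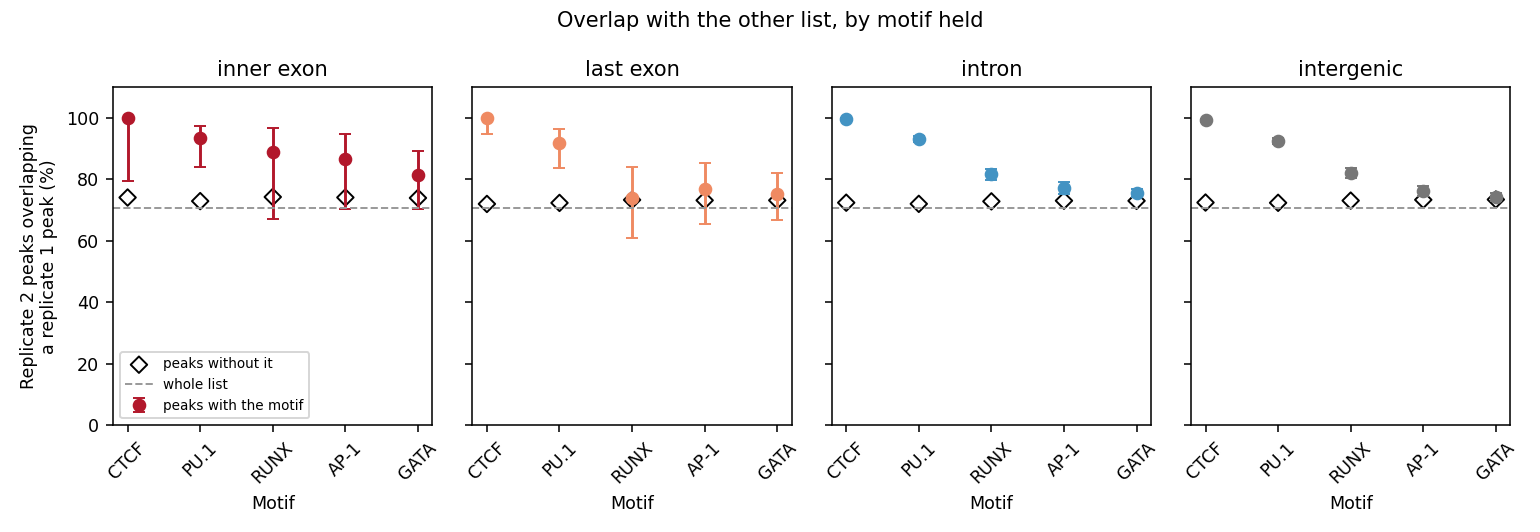
Share of replicate 2 peaks that overlap a replicate 1 peak, for peaks with a motif (filled circles, 95% Wilson intervals) and without it (open diamonds), by class. The dashed line is the 70.6% of the whole list; CTCF and PU.1 circles lie above their diamonds in all 4 classes.

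Spi1 stood apart by score in the replicate 2 list. Its 5 members were the only distal exon peaks with a score of 100 or more, out of 78 such peaks in the replicate 2 list. They had scores of 103 in exon 2, 144 in exon 3, 145 in exon 4 and 145 and 141 in exon 5, and the next highest member was a peak in the histone gene Hist2h2be at 87. Outside the exons, the 17627 bp of intron between them held no replicate 2 peak. At the 37.6 peaks per Mb of distal introns in this list, a stretch of that length would hold few peaks or none. By score Spi1 did not stand apart in the replicate 1 list, where 1736 distal exon peaks scored 100 or more and members of other genes reached the same highest score of 150. The peaks of exons 2, 3, 4 and the second of exon 5 were overlapped by replicate 1 peaks scoring 111, 150, 150 and 150. The replicate 1 list had 10 peaks in the introns, with scores from 47 to 116, all in introns 1 and 2. Its distal introns held 130 peaks per Mb.

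The Spi1 hotspots over exons 2, 3 and 4 ended at nearly the same distance outside the exon. In the replicate 2 list they started 95, 99 and 97 bp before exons 2, 3 and 4 and ended 100, 102 and 103 bp after them, and the hotspot over exon 5 started 101 bp before it. Replicate 1 hotspots started 102, 105, 105 and 105 bp before these 4 exons and ended 104, 103 and 104 bp after exons 2 to 4. The outer exons differed: the hotspot ended 182 bp after exon 5 in replicate 2 and 455 bp after it in replicate 1. Over the 898 bp exon 1 it started inside the exon and ended 95 bp after it in replicate 2, and in replicate 1 it started 82 bp before the exon and ended 692 bp after it. All were at the ceiling of 100 of the deposited −log10 q value. By a rule set after these values were seen, hotspots with both ends 50 to 150 bp outside the borders of an exon were counted over the genome. The replicate 2 list had 204 in 197 genes, of which 192 had 1 and 4 had 2. Spi1, with 4, was the only gene above that. Its hotspots over exons 2, 3 and 4 met the rule, and exons 5 and the 898 bp exon 1 did not. The remaining hotspot met it over a shorter annotated first exon of 214 bp, starting 83 bp before and ending 95 bp after it. In the replicate 1 list 3 genes had 3, namely Spi1, the transporter gene Abca8a and Unc13b. A cause for the exon-bound signal at Spi1 was not tested. Without Spi1 the recurrence was 74.6% in inner and 73.4% in last exons, with median scores of 27 and 28.

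**Figure D5:**
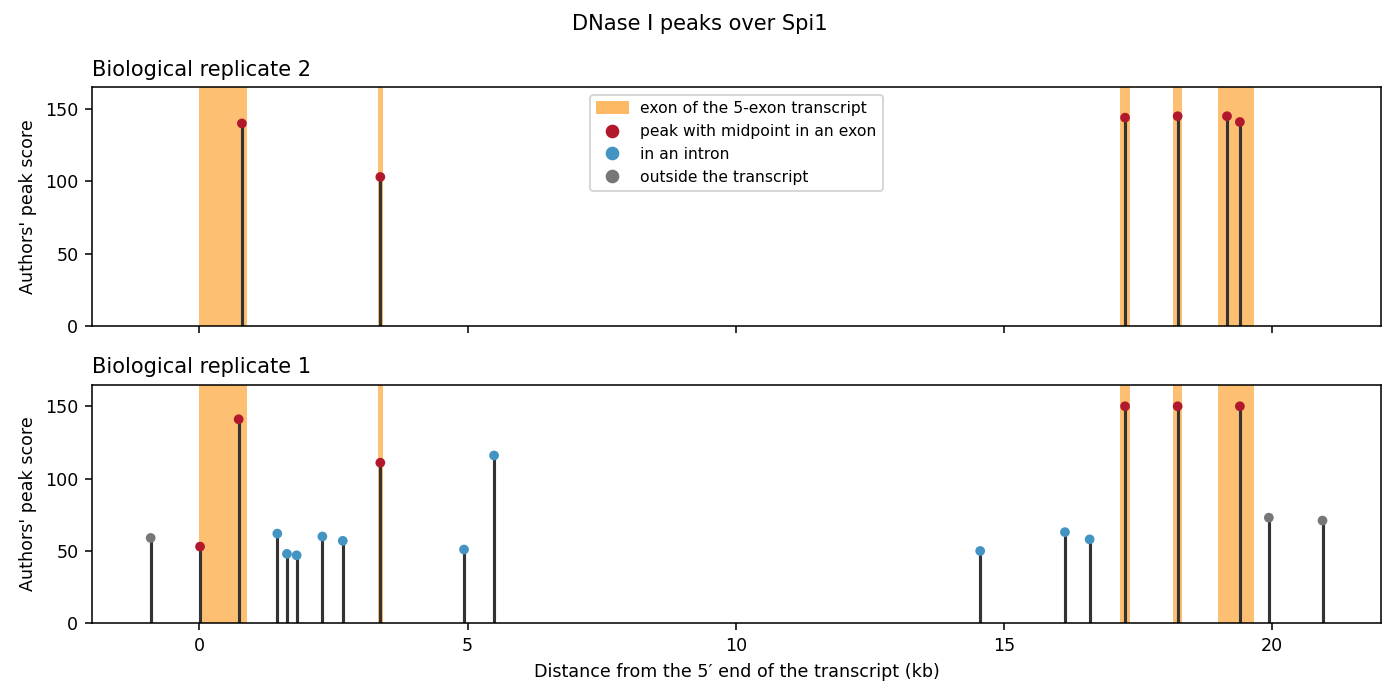
Authors' score of each peak against distance from the 5′ end of the 5-exon Spi1 transcript, in the replicate 2 list (top) and the replicate 1 list (bottom), with exons shaded. In replicate 2 all 6 peaks have midpoints in exons, the first of them (score 140) within 1000 bp of a start; in replicate 1 the introns hold 10 peaks.

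After Spi1, the highest inner-exon scores belonged to genes of varied function, all with midpoints in coding sequence. They were Zfyve27 (75), which encodes the endoplasmic reticulum protein protrudin, Angptl6 (67), Ahi1 (66), a gene of the primary cilium, BC107364 (65), Amhr2 (64), the receptor of anti-Müllerian hormone, Pdzd2 (62), Asap3 (61), Myo1e (60), a myosin, Twf1 (60), an actin-binding protein, Klf7 (59) and Washc2 (59). Of these 11, 4 had no overlapping replicate 1 peak: Zfyve27, Ahi1, Pdzd2 and Asap3. The other 7 had replicate 1 scores from 107 (BC107364) to 143 (Angptl6).

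The highest last-exon scores after Spi1 all lay in 3' UTRs. Dclre1b, a telomere nuclease gene, had 83, followed by Mxi1, an antagonist of MYC (78), Mcl1, an inhibitor of apoptosis (73), Faim2 (71), Atf6, a sensor of endoplasmic reticulum stress (70), Gpd1, a glycerol-3-phosphate dehydrogenase (70), Lars2, the mitochondrial leucyl-tRNA synthetase (69), Tatdn1 (67), Cnr2, a cannabinoid receptor (65), Gpn1 (64) and Tdrkh (63). Distance from the stop codon ran from 63 bp in Tatdn1 to 2677 bp in Faim2. A replicate 1 peak overlapped 9 of these 11, with scores from 117 (Tdrkh) to 147 (Lars2), and none overlapped those of Dclre1b and Atf6.

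Distal exon peaks were spread over many genes. Of 20714 protein-coding genes with distal exon bases, 1618 (7.81%) held at least 1 in the replicate 2 list, and 5327 (25.7%) in the replicate 1 list. A total of 1104 genes held 1, 340 held 2, 174 held 3 or more and 30 held 5 or more. Genes with a member had a median of 3504 distal exon bases, against 2153 over all genes. Of the 2410 members 1138 lay within 1000 bp of another, and 302 overlapped another. These shares were not computed for other peaks, so whether exon peaks differ from them in this is not known.

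Some genes carried rows of peaks along a long exon. In inner exons the most were in Uaca (8), all in an exon of 2709 bp with scores of 19 to 31, and in Unc13b (8), a gene of synaptic vesicle priming, with 6 in an exon of 2514 bp. Prr36 held 5 in an exon of 2196 bp, with scores of 32 to 54, and all 5 were overlapped by replicate 1 peaks. Itsn1, an endocytic scaffold, and Tanc2 held 4 each. The 4 of Itsn1 sat in 4 separate exons, while those of Tanc2 shared an exon of 608 bp. In last exons 7 genes tied at 7 peaks: Ephb2, an ephrin receptor, Fzd5, a Wnt receptor, Inhbe, an inhibin subunit, Ptpn14, a phosphatase, Hist1h2be, D10Wsu102e, whose annotated last exon spans 122802 bp, and OR5BS1P. Replicate 1 peaks overlapped all 7 in Fzd5 and 3 of 7 in Hist1h2be. In the single-exon class, Purb, a purine-rich-element binding protein, held 10 with scores of 15 to 49, of which 3 were overlapped by a replicate 1 peak. Fzd7, another Wnt receptor, held 8.

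Among genes that define the erythroid lineage, the share with a distal exon peak was near that of all genes in the replicate 2 list. Of 16 erythroid transcription factor genes 1 held any (6.25%, against 7.81% over all genes). This was Klf1, an erythroid Krüppel-like factor, with 2 peaks in its exon 2 of 3, with scores of 40 and 39, of which the second was overlapped by a replicate 1 peak of score 132. None of 13 haem synthesis genes and none of 6 globin genes with distal exon bases had a member. Sptb, a spectrin of the red cell membrane skeleton, held 1 in the 3' UTR of its last exon (41, replicate 1 score 105). The replicate 1 list had members in 7 of the 16 factor genes (43.8%), 2 of the 13 haem synthesis genes and 1 of the 6 globin genes, against 25.7% of all genes.

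Among 12 progenitor and leukaemia genes, Lyl1, a basic helix-loop-helix factor of blood progenitors, had a 3' UTR peak with a score of 40 (replicate 1 score 117) beside the 5 of Spi1. Zinc transport and metallothionein genes had members in 6 of 28, 21.4% against the 7.81% of all genes, and in 11 of 28 in the replicate 1 list (39.3% against 25.7%). Their 7 members in the replicate 2 list gave 89.2 per Mb (35.9 to 184) beside 42.3 per Mb over all genes, so the interval reached below the value of all genes. Mtf1, the zinc sensor, had a peak in its 3' UTR (score 28, replicate 1 score 105), as had Slc30a1, the exporter of the plasma membrane (23, 76). The exporter Slc30a2 (42), the importer Slc39a8 (13) and Slc30a8, the zinc transporter of insulin granules (7), each had a peak with none over it in replicate 1. Slc39a4, the intestinal zinc importer, held 2: 44 in exon 11 of 12 (replicate 1 score 128) and 30 in its last exon, with no overlap. Of 15 oxidative stress genes Gpx1, a glutathione peroxidase, had a 3' UTR peak (42, replicate 1 score 100), and none of 14 heat shock genes had a member, while the replicate 1 list had 8 members in 6 of these 14 (42.9%, against 25.7% of all genes).

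Families with large coding exons differed among themselves. Chromatin modifier genes had members in 8 of 30 (26.7%, against 7.81% of all genes). Among them were the acetyltransferases Crebbp and Ep300 and the DNA methyltransferases Dnmt1 and Dnmt3b. Their density was 58.1 per Mb (30.0 to 102), an interval that included the 42.3 of all genes. In the replicate 1 list it was 136 per Mb, against 139 over all genes. C2H2 zinc finger genes had members in 25 of 457, at 29.1 per Mb (21.5 to 38.4), and olfactory receptors in 22 of 1011, at 11.96 per Mb (7.74 to 17.7), both intervals below the 42.3 of all genes. Clustered protocadherins, neuronal adhesion genes with long first exons, had none in 56 genes in the replicate 2 list (upper Poisson bound 18.4 per Mb), yet 45 in 22 genes in the replicate 1 list (224 per Mb, against 139 over all genes). Of 39 Hox genes only Hoxb13 had members, 4 peaks with scores of 11 to 19, of which 3 were overlapped by replicate 1 peaks.

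Markers of other lineages were checked in the same way, beside the 7.81% of all genes in the replicate 2 list and 25.7% in the replicate 1 list. The lists are too short for a share to be read from them. In the replicate 2 list, members were found in 2 of 14 myeloid genes (Cebpa, and Csf1r in an exon shared with Hmgxb3), none of 12 T cell genes, 1 of 10 B cell genes (Cd79a), 1 of 12 liver genes (Apoa1), 1 of 12 neuron genes (Gad2) and 2 of 11 skeletal muscle genes (Ckm and Ttn). In the same order, the replicate 1 list had members in 5, 2, 2, 2, 5 and 4 genes. At promoters, all 8 erythroid markers had a peak in both lists. For liver, T cell, B cell and muscle, each list had a peak at 1 of 4. The liver gene differed, Apoa1 in replicate 2 and Alb in replicate 1. Members per Mb of distal exon sequence ran from 15.1 on chromosome Y, with only 2 members, to 59.4 on chromosome 19. Other distal peaks had their extremes on the same chromosomes, at 1.85 and 46.1 per Mb.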

How the data were processed

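DNase-seq was done on 3 libraries of MEL cells. Per the labels, reads were aligned to mm10; no aligner or peak caller is named in the sources used here. The authors deposited 1 peak list and 1 hotspot list for biological replicate 2, and another pair whose source alignment is named only in the deposited records of biological replicate 1. Each peak carries a score deposited by the authors, and each hotspot the −log10 of a q value, deposited by the authors, with a ceiling of 100.

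Here, peak midpoints were assigned to exon classes from GENCODE mouse release 21, leaving out 312 replicate 2 peaks on other contigs. Coordinates are 1-based. Chromosome ends were checked 84 times (each chromosome in each list), and all lay within the reference lengths. Shares have 95% Wilson intervals, differences of shares Newcombe intervals and densities exact Poisson intervals (Python 3.11.15, scipy 1.17.1, pandas 2.3.3, numpy 2.4.6, matplotlib 3.10.9). These cover counting error only, and no p-value was computed. Windows for motif shares were 150 bp on a fixed grid, all of them in exons and 1 in 50 elsewhere. The scripts were tested on simulated data.

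Genes named are those of the 12 highest-scoring peaks per class (at most 1 per gene), the 5 genes with most peaks per class (7 where tied), and all genes with a member from the erythroid, haem, globin, membrane, progenitor, zinc and oxidative stress lists; other names were chosen after their values were seen. The result for 1 gene of the membrane list is not reported here. The members and lists were chosen with earlier results of these data known. Alternatives covered the distance to a start, the exon set, the overlap rule and the list used.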

Additional observations from a re-analysis of the deposited data

How the results depend on the processing

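The number of distal exon peaks stayed within 1.5 times 2410 under 6 alternatives (1931 to 3127), and was 993 with coding sequence only and 7887 in the replicate 1 list. Last exons made up 67.2% of inner and last together. This was 64.6% at 500 bp from a start, 69.2% at 2000 bp, 21.9% with coding sequence only and 71.5% with exons of all transcripts. Coding sequence alone gave 33.7 last-exon peaks per Mb. Recurrence in inner and last exons was 56.3% and 55.1% when peaks had to share 50% of their length, and 57.7% and 58.6% against a replicate 1 list shortened by score to the same length. For peaks at or above the median score it was 78.8% in last exons. Median scores in the replicate 1 list were 63 and 64.

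Inner exons had a lower CTCF share than last exons, and last exons a higher share than introns, in the replicate 1 list too. Both differences also held in the higher-scoring peaks. Written backwards, the motif matched 0% of inner-exon, last-exon and intron peaks of replicate 2. That alternative could therefore test neither difference. CTCF in inner exons minus introns turned to 0.28 points in the replicate 1 list and was -2.16 points in the higher-scoring peaks, with an interval below 0. PU.1 in inner exons no longer differed beyond counting error in the higher-scoring peaks, at 2.25 points from last exons and 2.19 from introns. The backwards spelling, a different sequence, gave 1.00 and 0.80 points, with intervals that included 0. The metal response element kept its excess over introns in the replicate 1 list, in the higher-scoring peaks and without Spi1. Its backwards spelling, a different sequence, also exceeded introns (0.52 and 0.36 points). The cause of these changes was not tested. Leaving out Spi1, an alternative added after the data were seen, changed no direction or interval call among the results it was run on. Each replicate has 1 list, so reads per peak, and a spread between libraries, could not be given. No paired analysis was possible because all libraries belong to 1 treated group.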
